A study of Homo sapiens with 9 samples.

Results

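The 200 genes described here are the best expressed of the zinc finger genes that carry a number as their name. They were chosen by symbol (ZNF, a number and at most 1 letter after it) and by level: of 480 such genes on the arrays, those with the 200 highest means over all 9 arrays were kept, out of 18404 genes in all. The choice rests on the mean over all arrays, which gives each group the same weight, so the levels below are a description and the differences between groups were not used to pick the genes. Of the 200, 198 are protein-coding and 2 (ZNF271P and ZNF767P) are transcribed pseudogenes in RefSeq.

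RNA came from MCF10A, an established, non-tumorigenic line of human mammary epithelial cells, in 3 groups of 3 arrays. The controls are parental cells by one label but carry the empty vector by the design text. The WT-HER2 cells express wild-type HER2, the receptor tyrosine kinase encoded by ERBB2, and the Delta-HER2 cells express a splice variant of it. All cells were grown with 5% horse serum, 20 ng/ml epidermal growth factor, hydrocortisone, cholera toxin and insulin, and then spent 16 hours in medium in which antibiotics are the only named addition. Neither the vector and its promoter, nor whether a line is a clone, nor whether replicates were separate cultures is given in the sources used here, so p-values measure the spread between these arrays. The making of a HER2 line and the action of its receptor cannot be told apart.

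Most proteins with numbered names of this kind carry arrays of C2H2 zinc fingers, in which a pair of cysteines and a pair of histidines hold a zinc ion and a short helix reads a few bases of DNA. Many also carry a KRAB domain, which binds TRIM28 (KAP1). TRIM28 in turn brings SETDB1, a histone H3 lysine 9 methyltransferase, HP1 proteins and histone deacetylases, and the bound DNA, often a transposable element, is silenced. The genes arose by repeated duplication and lie in clusters, chiefly on chromosome 19. Their coding sequences resemble each other, so a probe for one can also pick up another, and the value of any single gene carries that doubt. Some numbered genes have other roles, among them ZNF185, which encodes a LIM-domain protein of the actin cytoskeleton.

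Promoters of 6 of these genes are shown because the results below turn on them: 2 are copies of each other, 2 lie close together, 1 is the best expressed gene with a large decrease and 1 had the largest increase. RefSeq promoters on GRCh38.p14, from 250 bases before to 50 after a gene's start, were matched by gene number for 171 of the 200 genes, taking the start listed at the top for each gene. Sequences are written 5′ to 3′ along the gene, and capitals mark matches on either strand to CCGGAA (the core bound by ETS factors), GGGCGG (the GC box bound by SP factors) or CCAAT (bound by NF-Y).

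ZNF33A, chr10:38010425-38010724, plus strand: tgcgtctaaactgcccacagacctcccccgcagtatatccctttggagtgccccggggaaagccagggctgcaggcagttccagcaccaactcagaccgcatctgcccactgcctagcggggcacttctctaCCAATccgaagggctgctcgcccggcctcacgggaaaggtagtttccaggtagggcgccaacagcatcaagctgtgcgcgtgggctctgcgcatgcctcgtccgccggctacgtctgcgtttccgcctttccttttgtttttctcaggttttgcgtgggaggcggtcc
ZNF33B, chr10:42638521-42638820, minus strand: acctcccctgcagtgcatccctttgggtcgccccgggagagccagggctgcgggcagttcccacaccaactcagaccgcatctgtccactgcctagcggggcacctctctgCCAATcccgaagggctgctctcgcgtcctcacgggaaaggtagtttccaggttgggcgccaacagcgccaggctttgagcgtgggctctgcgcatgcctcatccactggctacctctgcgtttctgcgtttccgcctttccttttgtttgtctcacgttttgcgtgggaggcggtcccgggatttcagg
ZNF836, chr19:52171572-52171871, minus strand: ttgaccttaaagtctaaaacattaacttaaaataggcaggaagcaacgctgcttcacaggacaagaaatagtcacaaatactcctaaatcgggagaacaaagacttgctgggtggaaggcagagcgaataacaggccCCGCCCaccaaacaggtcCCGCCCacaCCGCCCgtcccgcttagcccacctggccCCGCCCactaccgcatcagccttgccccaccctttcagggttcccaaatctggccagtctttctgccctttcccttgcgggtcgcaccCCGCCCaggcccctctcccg
ZNF841, chr19:52095716-52096015, minus strand: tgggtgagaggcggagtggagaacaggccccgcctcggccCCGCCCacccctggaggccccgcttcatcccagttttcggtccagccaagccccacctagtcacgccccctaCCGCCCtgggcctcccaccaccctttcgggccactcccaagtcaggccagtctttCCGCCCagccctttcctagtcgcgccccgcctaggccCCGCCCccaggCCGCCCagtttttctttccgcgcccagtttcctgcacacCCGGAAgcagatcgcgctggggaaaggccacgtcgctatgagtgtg
ZNF655, chr7:99558392-99558691, plus strand: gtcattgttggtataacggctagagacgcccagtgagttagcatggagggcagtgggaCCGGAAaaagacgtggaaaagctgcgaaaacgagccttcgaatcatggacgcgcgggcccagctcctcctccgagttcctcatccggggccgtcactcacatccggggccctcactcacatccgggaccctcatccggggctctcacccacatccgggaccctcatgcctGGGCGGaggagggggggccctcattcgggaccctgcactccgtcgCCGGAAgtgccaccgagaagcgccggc
ZNF692, chr1:248859036-248859335, minus strand: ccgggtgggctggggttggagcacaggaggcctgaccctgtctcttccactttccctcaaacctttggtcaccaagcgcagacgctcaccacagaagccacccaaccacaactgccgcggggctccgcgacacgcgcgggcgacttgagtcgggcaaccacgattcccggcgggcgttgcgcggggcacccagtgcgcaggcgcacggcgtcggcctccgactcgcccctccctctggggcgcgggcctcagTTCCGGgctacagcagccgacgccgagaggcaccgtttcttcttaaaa

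The promoters of ZNF33A and ZNF33B are identical in 251 of 289 aligned columns (86.9%), and each holds a CCAAT match. Those of ZNF836 and ZNF841 hold 5 GC box matches each, and those of ZNF655, ZNF841 and ZNF692 hold the CCGGAA core. Of the 171 promoters, 72 (42.1%) are on chromosome 19, against 7.47% of all genes tested with a promoter. CCGGAA was found in 52.6% of them, against 23.2% of all genes tested and 31.7% of those whose mean level reached that of the lowest of the 200 (genes of like level). The GC box was in 70.2%, against 60% and 72.9%, and CCAAT in 44.4%, against 36.3% and 37%. ACTACAA, part of the motif of the factor ZNF143, was in 8.77%, against 3.22% and 4.1%. The median CpG count per 300 bases was 23, against 23 and 27. Promoters were also matched for 222 of the less expressed numbered zinc finger genes. Of these, 49.1% held the ETS core, 50.9% the NF-Y motif, 59% the GC box and 3.6% the ZNF143 motif, and 57.7% were on chromosome 19. The high shares of the ETS core, the NF-Y motif and chromosome 19 are thus not particular to the 200. These shares were not tested. A match is a string of letters and shows no binding, and matches to different motifs can overlap.

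Values are log2 levels per transcript cluster, the set of probes that reports 1 gene. Mean levels of the 200 genes over all arrays ran from 4.84 to 9.19, with a median of 5.76, against a median of 4.88 over all genes tested. The gauge of background, the 0.95 quantile of 340 olfactory receptor genes, lay at 3.18. The lowest group mean of any of the 200 was 3.93 (ZNF519 with Delta-HER2), so no group mean lay under that bound. The last genes inside the limit were ZNF17 (4.86), ZNF254 (4.85) and ZNF766 (4.84), and the nearest outside it were ZNF814, ZNF668 and ZNF503 (4.84 each). The limit therefore falls in a continuous run of levels.

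The gene with the highest mean was ZNF626, at 8.75, 9.66 and 9.46 in the controls, 9.32, 9.28 and 8.96 with WT-HER2 and 9.27, 8.66 and 9.36 with Delta-HER2. Its groups overlapped throughout, and its other cluster lay at 2.64, so the clusters disagree on its level. ZNF207, whose product binds BUB3 and acts in spindle assembly, followed with group means of 9.08 ± 0.23, 8.96 ± 0.09 and 8.91 ± 0.09 for control, WT-HER2 and Delta-HER2 (SD, n = 3), and ZNF460 was likewise level, with 7.82, 7.72 and 7.78. Neither passed the test in any comparison. The other genes of the 6 best expressed were ZNF462, ZNF655 and ZNF292, and each of these was lower with Delta-HER2 (below). Levels of different clusters depend on their probes, so this order is only a rough one. For the 9 genes with a further cluster of the same symbol, both clusters differed from control in the same direction with Delta-HER2. For ZNF618 the used and the other cluster differed by 0.32 and 0.42. With WT-HER2 and between the lines, the clusters of several of these genes had opposite signs. For ZNF616 they were −0.16 and 0.12 with WT-HER2, and 0.05 and −0.35 between the lines. Several of the other clusters lie at background.

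For the series as a whole, ERBB2 had group means of 6.99 for control, 7.98 for WT-HER2 and 8.95 for Delta-HER2. It was thus higher in both HER2 lines than in control, and 1.97-fold higher with Delta-HER2 than with WT-HER2. Its 1 cluster does not tell the wild-type transcript from the splice variant, so it does not check which HER2 line is which, and its value was identical on the 3 WT-HER2 arrays. Of 11 epithelial markers, the 8 with a cluster of their own all lay between 8.01 and 11.75. Some of them moved beside the zinc finger genes: with Delta-HER2, CDH1 (−1.03) and DSP (−0.93) fell and KRT18 (0.53) rose, and with WT-HER2, KRT14 (−0.68), DSP (−0.40) and CDH1 (−0.33) fell and KRT18 (0.34) rose (log2, limma). The summed levels of the 8 (log2) ranged from 13.23 to 13.27 in control, 13.13 to 13.19 with WT-HER2 and 13.09 to 13.18 with Delta-HER2. Markers of other cells were low for the most part, with 5 of 7 fibroblast, 2 of 6 blood and immune and 2 of 6 endothelial markers above the background bound. The summed levels of the fibroblast markers ranged from 7.88 to 8.07 in control, 8.23 to 8.33 with WT-HER2 and 7.71 to 7.88 with Delta-HER2, so that the control and Delta-HER2 ranges lie next to each other without overlap. For blood and immune markers the ranges were 8.46 to 8.49, 8.75 to 8.88 and 8.44 to 8.64, and for endothelial markers 5.78 to 6.04, 5.73 to 6.07 and 5.87 to 5.98. Of the single markers, PECAM1 (0.90) and CD68 (0.58) rose and COL1A1 (−0.44) and KDR (−0.36) fell with Delta-HER2, and CD68 (0.76) and DCN (0.58) rose with WT-HER2. The group means of KDR (2.97, 2.79 and 2.61) all lay under the background bound. So did those of PECAM1 in control (3.00) and WT-HER2 cells (2.83). The part of these markers in the results was not tested.

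Control replicate 1 and WT-HER2 replicate 3 stood apart from the other arrays of their groups, and the zinc finger genes were lower on both than on those arrays. On the second principal component over all genes (16.6% of the variance) they lay at 10.34 and 32.07, where the other control arrays lay at −16.69 and −18.27 and the other WT-HER2 arrays at −5.02 and −3.52. The median of the 200 genes was 5.81, 5.92 and 5.93 on the control arrays, 5.86, 5.83 and 5.70 on the WT-HER2 arrays and 5.71, 5.62 and 5.67 on the Delta-HER2 arrays. WT-HER2 replicate 3 thus lay as low as the Delta-HER2 arrays, while the other arrays of the control and WT-HER2 groups lay above all of them. Control replicate 1 held the lowest value of its group for 136 of the 200 genes (68% against 59.1% of the 9280 genes of like level) and WT-HER2 replicate 3 for 126 (63% against 61.4%). Delta-HER2 replicate 2 leaned the same way, at 8.64 on the second component, where the other Delta-HER2 arrays lay at −4.97 and −2.58. It held the lowest value of its group for 111 of the 200 genes (55.5% against 53.5%). The genes of like level were thus often lowest on the same arrays. Results are also given without control replicate 1 and WT-HER2 replicate 3, with Delta-HER2 replicate 2 kept. The part of these arrays in the results beyond that was not tested.

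**Figure D1:**
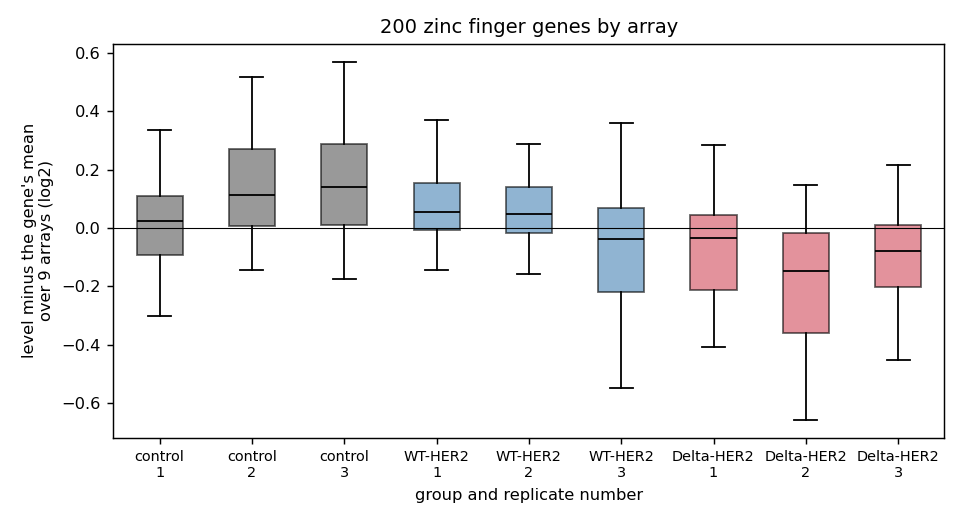
Each box shows, for 1 array, the level of the 200 zinc finger genes minus each gene's own mean over the 9 arrays (log2; line: median, box: quartiles, whiskers: 5th to 95th percentile). The medians of the 3 Delta-HER2 arrays lie below 0, as does that of WT-HER2 replicate 3, and those of the control arrays lie above it.

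With WT-HER2, 1 zinc finger gene passed the test, while 140 of the 200 differences from control were below 0 (70%, against 47.1% of all genes and 57.5% of the genes of like level). The comparison asks what expression of the full-length receptor went with. Of the 200 genes, 1 fell and 0 rose (limma, adjusted p below 0.05), beside 1.68% of all 18404 genes (0.902% lower, 0.777% higher) and 2.6% of the 9280 genes of like level (1.28% lower, 1.31% higher). At an unadjusted p below 0.05, 17 were lower and 2 higher, beside 1161 lower and 906 higher of all 18404 genes. Of the 9280 genes of like level, 893 were lower and 565 higher, so the 17 decreases are near that background. With limma's array weights 6 passed, all lower, and the count over all genes in that fit is not given here. The median difference was −0.07 log2, beside 0.01 over all genes and −0.03 over the genes of like level. The 3 WT-HER2 arrays lay below all control arrays for 16 genes and above them for 5, where 7.63% and 6.4% of all genes and 11.8% and 8.23% of those of like level did so.

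ZNF185 was the gene that fell. Its levels were 6.60, 6.56 and 6.62 in the controls, 6.01, 6.10 and 6.06 with WT-HER2 and 5.48, 5.58 and 5.48 with Delta-HER2. The groups do not overlap, and the values descend from control through WT-HER2 to Delta-HER2. The difference was −0.54 log2 with WT-HER2 (SE 0.06, adjusted p = 0.00396 by limma) and −1.08 with Delta-HER2 (SE 0.06, adjusted p = 2.76e-06), and both comparisons use the same control arrays. It was −0.55 between the HER2 lines (adjusted p = 2.22e-04). ZNF544 came next with WT-HER2: its values of 5.06, 5.18 and 5.27 in control and 4.74, 4.64 and 4.41 in WT-HER2 cells do not overlap, but the difference of −0.57 (SE 0.12) did not pass (adjusted p = 0.0555). Its Delta-HER2 values of 5.16, 5.06 and 5.45 overlapped those of the control.

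With Delta-HER2, the zinc finger genes leaned downwards, and few passed in the other direction. Of the 200 genes 49 fell, 4 rose and 147 did not pass. The median difference from control was −0.19 log2, with quartiles of −0.38 and −0.03, and 159 of the 200 differences were below 0. Over all genes the median was −0.01, and over the genes of like level it was 0.00. The comparison asks what expression of the splice variant went with. In bulk RNA, fewer transcripts in every cell and fewer cells with them cannot be told apart.

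The counts read differently against the background in each direction. Over all genes 25.4% were called, 11.7% lower and 13.6% higher, and among the 9280 genes of like level 41.3%, 18.9% lower and 22.5% higher. The share of the zinc finger genes that fell, 24.5%, was thus well above that of all genes and closer to that of the genes of like level, whereas the share that rose, 2%, was far below both. The 3 Delta-HER2 arrays lay below all control arrays for 76 of the 200 genes and above them for 6, where 17.8% and 19.2% of all genes and 26.3% and 30.5% of those of like level did so. The 280 less expressed numbered zinc finger genes also leaned down, with 32 lower and 6 higher of the 280 and a median of −0.09.

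**Figure D2:**
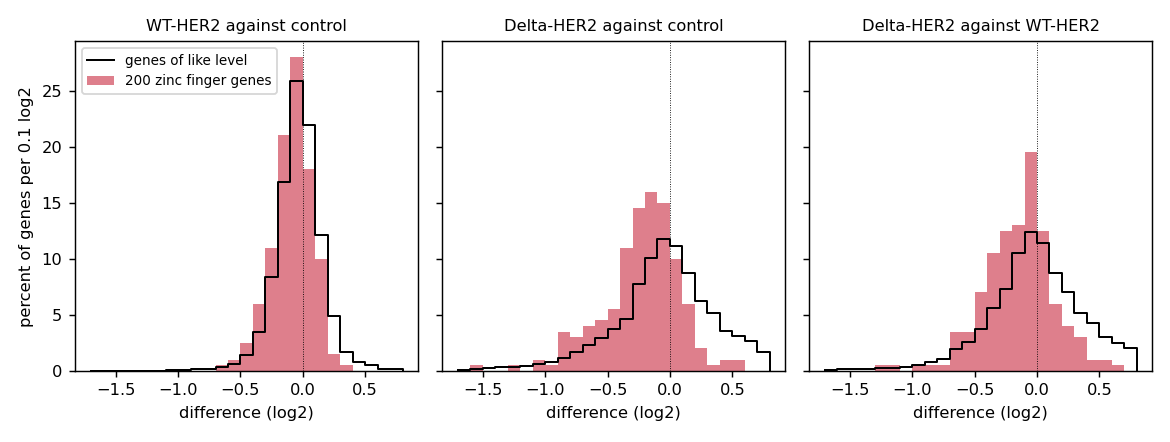
Histograms of the log2 difference between group means for the 200 zinc finger genes (filled) and the 9280 genes of like level (line), in bins of 0.1 log2, as percent of each set. None of the 200 genes and 8.64% of the others lie outside the plotted range with Delta-HER2 against control; the largest increase among the zinc finger genes was 0.54, and in that panel the bars above 0 lie under the line.

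Without control replicate 1 and WT-HER2 replicate 3, 71 of the 200 genes were lower and 10 higher with Delta-HER2, and the median difference was −0.22. Of all 18404 genes 5402 were called in that fit. It drops only the lowest arrays of the other groups and keeps the lowest Delta-HER2 array, so its counts are no cleaner estimate. Leaving out each of the 9 arrays in turn gave 39 to 55 lower and 3 to 5 higher genes among the 200. The counts over all genes in those fits are not given here. Of the 49 genes that fell, 35 passed in each of these 9 fits, and of the 4 that rose, 3 did.

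The best supported decreases included genes with high levels. ZNF655, whose product was named for its binding to VAV1, was at 8.09, 8.38 and 8.41 in the controls, 8.07, 7.92 and 8.05 with WT-HER2 and 7.21, 6.91 and 7.11 with Delta-HER2. The Delta-HER2 arrays lie apart from all others, and the gene was 2.33-fold lower than in control (−1.22 log2, SE 0.11, adjusted p = 3.13e-05). ZNF292, which encodes a very large zinc finger protein, had 7.90, 8.10 and 8.07, then 7.85, 7.81 and 7.61, and then 7.44, 7.21 and 7.27 in the same order of groups. These groups do not overlap, and it fell by 0.72 with Delta-HER2 (SE 0.10, adjusted p = 4.39e-04). ZNF462, a gene needed in neural development, changed less, by −0.35, from 8.41 ± 0.04 to 8.06 ± 0.15 (SD, n = 3). Its call was lost without Delta-HER2 replicate 1 (adjusted p = 0.0600 by limma) or replicate 2 (0.0548).

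The largest difference was that of ZNF519, with 5.03, 5.91 and 5.61 in the controls, 5.42, 5.38 and 4.86 with WT-HER2 and 4.13, 3.71 and 3.94 with Delta-HER2. Control and WT-HER2 values overlap, and the Delta-HER2 values lie below both. The gene fell 3.01-fold (−1.59 log2, SE 0.23, adjusted p = 6.26e-04). ZNF467, a zinc finger gene known from fat and bone cell differentiation, had 6.33, 6.34 and 6.49 in control and 6.61, 6.68 and 6.35 in WT-HER2 cells, and 5.51, 5.46 and 5.30 with Delta-HER2. It fell 1.95-fold from control (adjusted p = 8.83e-05). ZNF436 behaved alike, with 7.22, 7.22 and 7.33, then 7.34, 7.39 and 7.15, and then 6.48, 6.45 and 6.40, a decrease of 0.81 log2 (SE 0.08, adjusted p = 5.77e-05). In both genes the control and WT-HER2 arrays overlap and the Delta-HER2 arrays stand alone.

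ZNF862 showed steps in place of a single drop. Its control values of 5.75, 5.81 and 5.78, WT-HER2 values of 5.50, 5.46 and 5.44 and Delta-HER2 values of 4.96, 4.73 and 5.06 do not overlap. Against control the Delta-HER2 difference of −0.87 passed (adjusted p = 6.03e-05 by limma) and the WT-HER2 difference of −0.31 did not (adjusted p = 0.147). ZNF552 (−0.88), ZNF431 (−0.81) and ZNF766 (−0.77) completed the 12 largest decreases together with ZNF91, ZNF33A and ZNF33B. Without control replicate 2, ZNF431 missed the threshold (adjusted p = 0.0503). Of the 49 decreases 26 were at least 1.5-fold and 4 at least 2-fold. At least 1.5-fold were 1017 of the 2160 decreases over all genes and 831 of the 1750 among genes of like level. The 26 are thus near that background. In either direction, 961 of 4669 called genes and 772 of 3834 called genes of like level were at least 2-fold.

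ZNF91, whose product silences SVA retrotransposons, had 5.53, 5.86 and 5.95 in the controls, 5.93, 5.60 and 5.29 with WT-HER2 and 5.20, 4.58 and 5.00 with Delta-HER2. The spread within each group was wide, the Delta-HER2 arrays still lay below all others, and the decrease of 0.85 log2 (SE 0.20) passed with adjusted p = 0.0104 (limma). ZNF254, a relative of ZNF91, fell by 0.67, ZNF224, which encodes a KRAB repressor, by 0.71 (adjusted p = 4.26e-04), and ZNF318 by 0.66 (adjusted p = 0.00270). ZNF224 and ZNF318 were chosen for mention with their values known.

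The genes that rose with Delta-HER2 were 4: ZNF692, ZNF330, ZNF618 and ZNF275. ZNF692, known for a product that binds an element responsive to AMPK activation, was at 6.73, 6.61 and 7.00 in the controls, 6.90, 6.84 and 6.99 with WT-HER2 and 7.29, 7.25 and 7.41 with Delta-HER2. The Delta-HER2 arrays were above all others, by 0.54 log2 over control (SE 0.10, adjusted p = 0.00350). ZNF330, which encodes a nucleolar protein, rose by 0.42 (SE 0.10, adjusted p = 0.00979), from 6.57, 6.79 and 6.86 to 7.22, 7.05 and 7.22. ZNF618, which encodes a partner of UHRF2, rose by 0.32 and ZNF275 by 0.30, both less than 1.5-fold. The call of ZNF618 was lost without control replicate 1 (adjusted p = 0.0521) or 3 (0.0930), or Delta-HER2 replicate 1 (0.0664) or 2 (0.0913).

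The decreases were spread over all levels. From the best expressed 50 genes to the lowest 50, in steps of 50, 17, 9, 10 and 13 genes fell and 2, 0, 1 and 1 rose, with medians of −0.19, −0.14, −0.24 and −0.24. Level was what chose the 200, and the medians of these 4 steps show no steady trend.

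Between the HER2 lines, with each line measured against the other, 38 of the 200 genes were lower and 5 higher in Delta-HER2 cells. Of all genes 22.8% were called in this comparison (9.35% lower, 13.4% higher), and of the genes of like level 37.7% (15.3% lower, 22.4% higher). The arrays of the lines did not overlap for 61 of the 200 genes lower and 16 higher with Delta-HER2, where 16.3% and 18.3% of all genes and 22.5% and 30.3% of those of like level were so placed. The median was −0.11, beside −0.04 over all genes and 0.02 over those of like level. The largest decreases were ZNF519 (−1.29), ZNF467 (−1.13, SE 0.10, adjusted p = 4.23e-05 by limma), ZNF655 (−0.94), ZNF436 (−0.85), ZNF33B (−0.71) and ZNF91 (−0.68). The call of ZNF91 rested on single arrays: with control replicate 2 left out its adjusted p was 0.0552, with either of the first pair of WT-HER2 arrays up to 0.113, and with Delta-HER2 replicate 2 or replicate 3 up to 0.117.

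The 5 genes that were higher in Delta-HER2 than in WT-HER2 cells were ZNF544 (0.63, adjusted p = 0.00429 by limma), ZNF330 (0.46), ZNF692 (0.41), ZNF142 (0.32) and ZNF618 (0.32). For ZNF544 the WT-HER2 arrays were the low ones, as given above. ZNF692 missed the threshold when WT-HER2 replicate 1 (adjusted p = 0.0528), WT-HER2 replicate 2 (0.0624) or Delta-HER2 replicate 3 (0.0711) was left out. ZNF142 was lost without Delta-HER2 replicate 2 (0.0655) or 3 (0.0774), and for ZNF618 leaving out any of 4 arrays, WT-HER2 replicates 1 and 3 and Delta-HER2 replicates 1 and 2, gave values between 0.0684 and 0.0897. Without both arrays that stood apart, 51 genes were lower and 5 higher. Of all genes, 4554 were called in this comparison without those arrays and 4191 with them. This comparison shares the Delta-HER2 arrays with the one against control, so the counts are not independent of each other.

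ZNF33A and ZNF33B, the copies with like promoters, fell side by side. ZNF33A was at 5.52, 5.95 and 6.05 in the controls, 5.60, 5.69 and 5.17 with WT-HER2 and 5.04, 4.39 and 5.06 with Delta-HER2. ZNF33B was at 6.41, 6.88 and 6.82, then 6.74, 6.56 and 6.34, and then 5.96, 5.66 and 5.91. In both the Delta-HER2 arrays are below all others, with decreases from control of 1.01 (SE 0.22, adjusted p = 0.00687 by limma) and 0.86 log2 (SE 0.15, adjusted p = 0.00185). Probes may not tell the copies apart, so they do not count as independent cases. ZNF37A, which lies between them in gene order, was at 5.75 ± 0.31 in control and 5.75 ± 0.31 with Delta-HER2 (SD, n = 3).

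ZNF836 and ZNF841 flank ZNF616 in gene order. ZNF836 went from 7.07, 7.26 and 7.28 in the controls to 6.76, 6.52 and 6.57 with Delta-HER2, and ZNF841 from 6.99, 7.23 and 7.49 to 6.77, 6.43 and 6.49. In neither gene do these groups overlap, and they fell by 0.59 (adjusted p = 0.00168 by limma) and 0.67 (adjusted p = 0.00745). ZNF616 between them had a difference of −0.11 that did not pass (adjusted p = 0.701). These 3 genes are named for their position.

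The motif shares were close between the genes that fell and those that did not pass for CCGGAA and the GC box, and lower among the genes that fell for CCAAT. With Delta-HER2, 41 of the 171 genes with a promoter fell and 127 did not pass. CCGGAA was in 51.2% of the former and 52% of the latter, the GC box in 70.7% and 70.1%, and CCAAT in 31.7% and 48%. On chromosome 19, 20 of 72 genes (27.8%) fell, with a median of −0.27 over the 72, and elsewhere 21 of 99 (21.2%), with a median of −0.15. These differences in share were not tested.

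Genes beside another of the 200 fell about as often as the rest. In gene order among protein-coding genes, 66 of the 200 lie next to another of the 200, in 25 runs of 2 to 6. Of the 66, 17 fell with Delta-HER2 (25.8%), and of the other 134, 32 did (23.9%). ZNF467 and ZNF862 are neighbours that both fell. In the run of ZNF776, ZNF586 and ZNF552 the outer genes fell (by 0.76 and 0.88) and ZNF586 had a difference of −0.36 that did not pass, while in the run of 5 from ZNF786 to ZNF212 no gene passed.

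Among zinc finger genes with known roles, those of RNA and ribosome work showed no called change. In this list, which holds ZNF638, an RNA-binding protein gene, and ZNF598, a ubiquitin ligase gene of ribosome quality control, 0 of 11 passed in any comparison by limma, with a median of −0.05 with Delta-HER2 and −0.10 with WT-HER2. At an unadjusted p below 0.05, 2 were lower with Delta-HER2, 1 was lower with WT-HER2 and 0 differed between the HER2 lines. At the gene with the smallest p, ZNF638, the Delta-HER2 difference was −0.33 (adjusted p = 0.0686 by limma). Likewise 0 of 10 general promoter factors passed by limma, with medians of −0.15 and −0.05, and at an unadjusted p below 0.05, 1 was lower and 1 higher with Delta-HER2 and 0 differed with WT-HER2. ZNF219, with the smallest p of this list, had a difference of −0.22 with Delta-HER2 (adjusted p = 0.0560 by limma). Over all genes 25.4% were called with Delta-HER2, 1.68% with WT-HER2 and 22.8% between the lines. Of the genes of like level the shares were 41.3%, 2.6% and 37.7%. With 3 arrays a group and a median SE of 0.12 log2 over the 200 genes, small differences in these lists were not detectable.

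Of 18 zinc finger genes of chromatin complexes, 16 of them among the 200, 3 fell with Delta-HER2 and 0 rose (median −0.11), where 11.7% of all genes and 18.9% of those of like level were lower and 13.6% and 22.5% higher, so the count of decreases is near the background. With WT-HER2 0 passed by limma, 1 being lower at an unadjusted p below 0.05. The 3 were ZNF462, ZNF827, whose product recruits the NuRD complex, and ZNF518B, which is not among the 200. ZNF827 stood at 5.92 ± 0.13 in control, 5.78 ± 0.02 with WT-HER2 and 5.49 ± 0.03 with Delta-HER2 (SD, n = 3), a decrease of 0.43 (adjusted p = 0.00203 by limma). The call of ZNF518B was lost without Delta-HER2 replicate 1 (adjusted p = 0.0603) or 2 (0.0529). ZNF217, a gene amplified in breast cancer whose product works with corepressors, had group means of 6.96, 6.92 and 7.05 and did not pass.

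Of 9 zinc finger genes linked to breast or epithelium, 3 of them among the 200, 4 fell with Delta-HER2 and 0 rose, with a median of −0.46, beside 11.7% lower and 13.6% higher over all genes and 18.9% and 22.5% over those of like level. Beside ZNF185, these were ZNF652, a corepressor partner (−0.55, adjusted p = 0.00952 by limma), and, outside the 200, ZNF350, which encodes a partner of BRCA1 (−0.51), and ZNF750, a driver of epidermal differentiation (−1.04, adjusted p = 7.78e-04). ZNF750 also fell with WT-HER2, from 4.39 ± 0.34 to 3.48 ± 0.17 (SD, n = 3; adjusted p = 0.0211). That call was lost when any of control replicates 2 and 3 and WT-HER2 replicates 1 and 3 was left out, with values between 0.0689 and 0.112. ZNF365 and ZNF366 lay at background.

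The partners of KRAB proteins did not share the downward shift. TRIM28 was at 8.78 ± 0.01 in control, 8.84 ± 0.04 with WT-HER2 and 9.07 ± 0.03 with Delta-HER2 (SD, n = 3), and rose by 0.28 with Delta-HER2 (SE 0.06, adjusted p = 0.00603 by limma). SETDB1, with group means of 7.27, 7.21 and 7.21, differed by −0.06 with Delta-HER2 and did not pass (adjusted p = 0.722). Of 39 genes in the list of TRIM28 and its heterochromatin partners, 12 rose and 4 fell with Delta-HER2, with a median of 0.07, beside 13.6% and 11.7% of all genes and 22.5% and 18.9% of those of like level. Those with the smallest p were DNMT1, the maintenance DNA methyltransferase gene (1.72, adjusted p = 9.27e-07), SUV39H1, a histone methyltransferase gene (1.14), RBBP7 (0.77) and the HP1 gene CBX5 (1.04). The genes that fell, named after their values were seen, were ATF7IP2 (−1.44), MPHOSPH8, a subunit gene of the HUSH silencing complex (−0.44, adjusted p = 8.77e-04), DNMT3A (−0.28) and CHD3 (−0.27). With WT-HER2, 0 of the 39 passed by limma (3 lower and 2 higher at an unadjusted p below 0.05), and the smallest p in the list belonged to MPHOSPH8 (−0.23, adjusted p = 0.166).

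**Figure D3:**
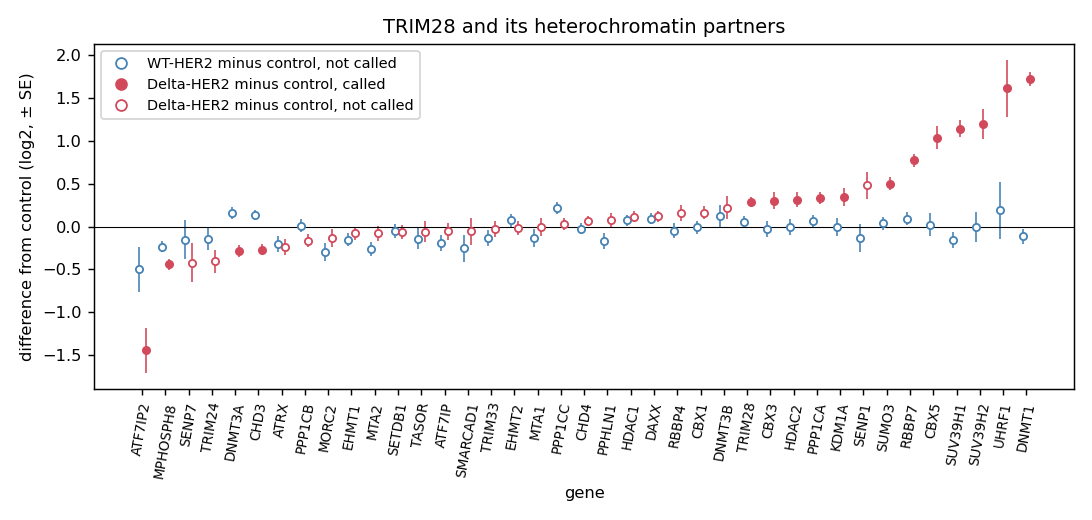
Differences from control (log2, with SE) of 39 genes of TRIM28 and its heterochromatin partners, sorted by the Delta-HER2 difference; filled points passed limma at adjusted p below 0.05. With Delta-HER2 12 genes rose, up to 1.72 for DNMT1, and 4 fell, down to −1.44 for ATF7IP2, and no WT-HER2 point passed.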

How the data were processed

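RNA of 9 samples was measured on Affymetrix whole-transcript arrays. The authors deposited log2 levels, which they computed with RMA (affy, R 2.14), per the submitters' processing notes; the genome build is not given in the sources used here. The table held 32321 clusters, with array medians from 4.04 to 4.18. Of these, 19158 had 1 gene symbol, 1388 several and 11775 none listed; the cluster with the highest mean stood for each of 18404 genes.

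Comparisons used limma 3.58.1 (R 4.3.3), with all 9 arrays in the fit, 1 coefficient per group, two-sided tests and Benjamini-Hochberg adjustment over the 18404 genes; calls were made at adjusted p below 0.05. No genes were filtered. The number of arrays limits the precision.

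The 200 genes, lists, tests and alternatives were chosen with earlier results of these data known. Genes were named by rule: the 6 highest levels, 3 on each side of the limit, the 12 largest called increases and decreases against control and 6 between the HER2 lines where arrays do not overlap, up to 4 per list and comparison by p, and TRIM28 and SETDB1; others are marked as picked after their values were seen or illustrate neighbours. Lists count genes with a cluster of their own. Replicate numbers were not used to pair arrays in the main fit. Same-numbered arrays' deviations correlated from −0.51 to 0.30. With 3 arrays a group, such values largely follow the arrays that stood apart. Control replicate 1 and WT-HER2 replicate 3 correlated at 0.64. Pairing can therefore not be excluded this way. RefSeq names came from GRCh38.p14. Classes of zinc finger proteins were planned but are not used here, since no protein sequences were at hand.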

Additional observations from a re-analysis of the deposited data

Results flagged for a closer look

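The effects of WT-HER2 and Delta-HER2 against control differed for 43 of the 200 genes (21.5%). This was tested by the direct comparison of the lines (limma, adjusted p below 0.05). Of all genes 22.8% did so, and of the genes of like level 37.7%. The count is thus near the share of all genes and below that of the genes of like level. The Delta-HER2 minus WT-HER2 differences of the genes named for it were −1.29 log2 for ZNF519, −1.13 for ZNF467, −0.94 for ZNF655, −0.85 for ZNF436, −0.71 for ZNF33B and −0.68 for ZNF91, and 0.63 for ZNF544, 0.46 for ZNF330, 0.41 for ZNF692, 0.32 for ZNF142 and 0.32 for ZNF618. Some of these genes had effects of opposite sign. ZNF544 differed from control by −0.57 with WT-HER2 and 0.05 with Delta-HER2, and ZNF467 by 0.16 and −0.96. Of these effects only the last passed against control, so the other signs are not established. ZNF618 also differed in sign, at −0.01 with WT-HER2 and 0.32 with Delta-HER2.

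Clusters with several symbols, at least 1 of them a numbered zinc finger gene, were not used because no single gene could be named. In a fit of all 32321 clusters, 9 of 36 such clusters were called with Delta-HER2 against control, 7 lower and 2 higher, with a median of −0.12; of all clusters 2524 were lower and 2802 higher.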

How the results depend on the processing

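The direction of every named gene's called difference and of the medians held under all alternatives: the medians ran from −0.24 to −0.15 for Delta-HER2 against control, −0.11 to −0.03 for WT-HER2 against control and −0.19 to −0.10 between the lines. Over all named genes, comparisons and alternatives, the call or its absence stayed in 4149 cases. A call was lost in 85, gained in 71 and reversed in 0. The 4149 include genes that passed in neither fit, so the share of calls lost is larger than these counts imply. Leaving out 1 array gave 42 to 60 called genes (3 to 5 higher, 39 to 55 lower) for Delta-HER2 against control, 29 to 49 (3 to 7 higher, 26 to 45 lower) between the lines and 1 to 2, all lower, for WT-HER2; the second came without Delta-HER2 replicate 3. Without control replicate 1 and WT-HER2 replicate 3, 81 genes were called (10 higher, 71 lower), and 2 with WT-HER2, all lower. Of all genes, 5402 and 294 were called in these comparisons. Array weights gave 85 (7 higher, 78 lower) and 6 lower with WT-HER2. Keeping only genes above the olfactory bound, or above the median level, gave 2 lower with WT-HER2. An adjusted p below 0.01 gave 30 (2 higher, 28 lower) and, between the lines, 22 (2 higher, 20 lower); a required 1.5-fold gave 26 (0 higher, 26 lower), 11 (1 higher, 10 lower) and 0 with WT-HER2. Quantile normalization gave 3 higher between the lines. The 100 best expressed genes gave 28 (2 higher, 26 lower) and 25 (2 higher, 23 lower), and the 300 best gave 9 higher between the lines; the number of genes counted differs by construction. Elsewhere the cause was not tested. The replicate block, for numbers whose pairing is not known (1 of 9 arrays correlated best with its own number), gave 44 (4 higher, 40 lower), 31 (4 higher, 27 lower) and 1.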

Other observations

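Zinc finger genes named in other ways were looked at after the data had been seen, at or above the level of the lowest of the 200. Of all genes at such levels, 18.9% fell and 22.5% rose with Delta-HER2, and of all genes 11.7% and 13.6%, and the counts below are to be read beside these shares. Among them ZSCAN31 had the largest difference: it fell 5.84-fold with Delta-HER2, from 7.97 ± 0.23 (SD, n = 3) over 7.83 ± 0.10 with WT-HER2 to 5.43 ± 0.22 (adjusted p = 1.62e-06 by limma). Of 5 ZSCAN genes, whose products carry a SCAN domain for pairing, 3 fell and 0 rose, and of 3 ZKSCAN genes 2 fell (ZKSCAN1 by 0.68 and ZKSCAN8 by 0.46). Of 30 ZBTB genes, whose products carry a BTB domain, 10 fell and 2 rose, with a median of −0.19. ZBTB16 (PLZF), a gene that glucocorticoids induce in many cells, fell by 1.85 (SE 0.14), from 8.27 to 6.42, and ZBTB38, which encodes a binder of methylated DNA, rose by 0.28. Of 6 ZFP genes 1, ZFP62, fell.

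Zinc finger genes of other kinds gave calls in both directions. Of 14 KLF genes, which encode Krüppel-like factors, 5 fell and 1 rose (median −0.13). Of 15 ZC3H genes, whose CCCH fingers bind RNA, 2 rose and 1 fell (median 0.12), and of 16 ZDHHC genes, which encode palmitoyltransferases, 1 rose and 1 fell (median −0.01). Of the less expressed numbered genes, 6 rose with Delta-HER2: ZNF215 (1.20), ZNF239 (0.85), ZNF485 (0.68), ZNF473, which acts in histone mRNA processing (0.54), ZNF367 (0.39) and ZNF232 (0.35). These groups are small and were not compared with each other by a test.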
